A study of Mus musculus with 1470 samples.

Results

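Lymphocyte fate transcription factors are the regulators that set, or mark, the choice between natural killer (NK), helper, cytotoxic, regulatory and innate-like T cell programmes. The 9 genes described here are Tbx21, Eomes, Zbtb16, Gata3, Tcf7, Lef1, Foxp3, Id2 and Zbtb7b. They were taken by symbol from the 14915 rows of the expression table, by a rule that uses no measured value although earlier results of these data were known when it was made, and all 9 were present. Each was followed across NK-like, CD8 T, CD4 T, Cd4/Cd8b1-negative T and B-like cells of mouse liver and across 2 diets.

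The study profiled single non-parenchymal liver cells, those other than hepatocytes, of male C57BL/6J mice by Smart-seq2, a plate method that reads whole transcripts and carries no molecular identifiers. Normal diet (ND) mice received chow. High-fat diet (HFD) mice received a diet with 60% of its energy from fat for 9 weeks from 5 weeks of age. Each diet had 3 mice, named ND1 to ND3 and HFD1 to HFD3, and the table held 1470 cells.

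Background on these factors is well established. Tbx21 (T-bet) and Eomes (Eomesodermin) are paired T-box factors of NK cells and cytotoxic T cells, and in mouse liver conventional NK cells carry both whereas resident type 1 innate lymphoid cells carry T-bet alone. Tcf7 (TCF-1) and Lef1 are HMG-box factors that keep naive and memory T cells in a quiescent, recirculating state. Gata3 drives T-helper 2 fate, Zbtb7b (ThPOK) holds the CD4 lineage, Foxp3 is the lineage factor of regulatory T cells, and Zbtb16 (PLZF) marks NKT and other innate-like T cells. Id2 binds E proteins, factors that B cells need, and keeps them from DNA, which permits the innate lymphoid and effector fates.

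Promoter sequence is shown for the T-box pair and for Id2, since the results below turn most on these 3 genes. Each line gives the 250 bases before the RefSeq start in GRCm38.p6, read along the gene's strand, with matches on either strand to the TATA box (searched as TATAA), the CCAAT box and the GC box (searched as GGGCGG) in capitals. Tbx21 lies at chr11:97098007-97115331 on the minus strand and its window at chr11:97115332-97115581. Eomes lies at chr9:118478186-118486132 on the plus strand and its window at chr9:118477939-118478188, which overlaps the first 3 bases of that span. Id2 lies at chr12:25093799-25096092 on the minus strand and its window at chr12:25096093-25096342.
Tbx21: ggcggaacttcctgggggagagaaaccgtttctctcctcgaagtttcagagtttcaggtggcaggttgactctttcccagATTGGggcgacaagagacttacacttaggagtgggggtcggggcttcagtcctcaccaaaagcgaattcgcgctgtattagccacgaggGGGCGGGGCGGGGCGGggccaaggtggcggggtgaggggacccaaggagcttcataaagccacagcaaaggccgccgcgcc
Eomes: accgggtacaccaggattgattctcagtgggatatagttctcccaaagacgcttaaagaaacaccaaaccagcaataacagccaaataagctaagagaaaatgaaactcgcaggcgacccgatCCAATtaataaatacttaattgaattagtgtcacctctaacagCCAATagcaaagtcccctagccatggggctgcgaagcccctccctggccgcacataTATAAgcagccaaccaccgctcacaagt
Id2: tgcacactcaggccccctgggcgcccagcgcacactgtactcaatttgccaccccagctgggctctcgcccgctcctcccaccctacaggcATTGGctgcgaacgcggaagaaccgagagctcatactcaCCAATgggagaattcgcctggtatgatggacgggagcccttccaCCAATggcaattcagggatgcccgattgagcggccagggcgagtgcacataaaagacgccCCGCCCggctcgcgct

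The Tbx21 window held 3 overlapping GC boxes, 1 CCAAT box and no TATA box, with a GC content of 60.8%. In the Eomes window there were 1 TATA box and 2 CCAAT boxes but no GC box, at a GC content of 46.4%. Id2 had 3 CCAAT boxes and 1 GC box at 62.8% GC. Over all 32851 RefSeq windows of this length the median GC content was 52.4%, and 22.8% held a TATA box, 33.8% a CCAAT box and 32.7% a GC box. A T-box half-site (GGTGTGA) was in 3.33% of all windows and in none of the 14 windows of the 8 factors that had one. These matches describe letters only. Zbtb16 was not matched.

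Cells were assigned to populations from genes other than the 9 factors, which were left out of the clustering. The NK-like class held 51 cells and the B-like class 250. T-cell-like cells were split by Cd4 and Cd8b1 at 1 RPKM, a read count scaled to transcript length and to the reads of the cell. This gave 52 CD8 T cells, 123 Cd4/Cd8b1-negative cells and CD4 T cells numbering 26, 14 and 24 in ND1 to ND3 and 22, 15 and 3 in HFD1 to HFD3, and 28 cells with both genes were left out. Defining markers were present in these classes, but less often in the CD4 T and CD8 T populations for the genes that split them. At 50 RPKM or more, Cd4 was in 71.2% of CD4 T cells and Cd8b1 in 63.5% of CD8 T cells. At the 1 RPKM of the split, Cd4 was in 21.4% and Cd8b1 in 17.8% of endothelial cells. Some cells of both populations therefore carry these names from low values. Conversely, Cd4/Cd8b1-negative cells are named from values of both genes below 1 RPKM. CD4 or CD8 T cells whose Cd4 or Cd8b1 was not read would also be counted there. Their share was not tested, so this population is not taken as a cell type of its own. Cd3e reached 50 RPKM in 96.2% of CD8 T, 95.2% of CD4 T and 82.9% of Cd4/Cd8b1-negative cells, Cd79a in 97.6% of B-like cells and Ncr1 in 76.5% of NK-like cells. Cd3e also reached 50 RPKM in 13.7% of NK-like cells, 10.9% of endothelial cells and 2.4% of B-like cells. Since the populations were themselves drawn from expression in these cells, differences between them describe the factors given that partition.

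One mouse stood apart. Lymphocytes of HFD2 had a median of 1534 detected genes, against 2337 to 3280 in the other 5 mice. HFD2 also gave 54 of the 123 Cd4/Cd8b1-negative T cells, and these were most of its 77 T-cell-like cells. The part of its low number of detected genes in this was not tested. The T-cell-like class joined 2 clusters, and 71 of the 110 cells of the second came from HFD2, as did 54 of the 68 cells of the second B-like cluster. Results that rest on HFD2 are given with and without it. No 2 cells had identical profiles.

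Low values needed care before any factor was called present. The plot of Tbx21 values in single cells showed 2 layers, one at a few RPKM in each class drawn and one mostly above 50 RPKM in NK-like and CD4 T cells. Tbx21 was at or above 1 RPKM in 42.8% of B-like and 41.8% of endothelial cells, classes that should lack it. In those positive cells the median corresponded to about 0.972 and 0.965 reads, against 160.8 in NK-like, 143.1 in CD4 T and 125.2 in Cd4/Cd8b1-negative cells. The same held for other factors. The median positive cell had 0.986 reads of Gata3 in the B-like class and 50.45 in CD4 T cells, and 1.09 reads of Tcf7 in the B-like class and 108.8 in CD4 T cells. For NK-like cells Tcf7 was also at 1.09 reads. Values of about 1 read were therefore read as background, and shares of cells are given at 50 RPKM or more. All intervals on shares are exact binomial 95% intervals over cells and cover counting error only. Where no cell reached that level, the share given as allowed is instead that of 3 cells in the total.

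**Figure D1:**
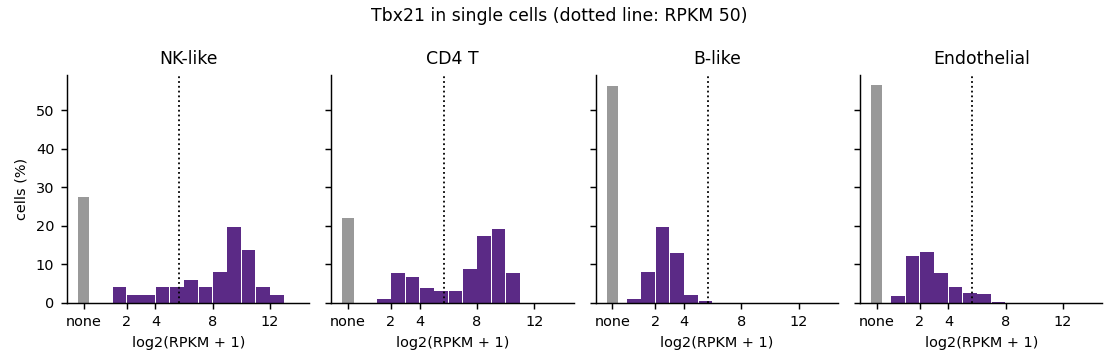
Tbx21 in single cells by class: the x axis gives log2(RPKM + 1), the y axis the percent of cells in each bin, and the dotted line marks 50 RPKM. B-like and endothelial cells lie in the low layer, with 0 of 250 and 12 of 467 cells at or above the line, whereas 30 of 51 NK-like cells and 58 CD4 T cells (55.8%) lie to the right of it.

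Levels below are means of log2(RPKM + 1) over the cells of a population in 1 mouse, and the mean ± SD is over the 6 mice, in the order ND1, ND2, ND3, HFD1, HFD2, HFD3 where single values are listed. RPKM is scaled per transcript length, so levels can be ordered between genes. Differences between populations were tested with limma across all 11813 genes that passed a filter on low values, with Benjamini-Hochberg adjustment and a threshold of 0.05. All 9 factors passed the filter. Over the 10 pairs of populations, 27 of 90 factor contrasts were called.

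Factors were called most often against B-like cells. NK-like against B-like cells gave 4 of 9 factors (Tbx21, Eomes, Gata3 and Id2) where 4.41% of all genes were called. CD8 T, CD4 T and Cd4/Cd8b1-negative T against B-like cells gave 5 of 9 each, where 4.88%, 4.76% and 4.56% of all genes were. NK-like against CD8 T cells gave 4 (Eomes, Tcf7, Lef1 and Id2; 2.86% of all genes), against CD4 T cells 2 (Eomes and Tcf7; 1.57%) and against Cd4/Cd8b1-negative cells 1 (Eomes; 1.08%). These are counts over 9 chosen genes.

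Within T cells few factors and few genes separated the populations under the split at 1 RPKM. Of the 9 factors, Id2 alone was called between CD8 T and Cd4/Cd8b1-negative cells, where 0.0847% of all genes were. No factor was called by limma between CD8 T and CD4 T cells (0.135% of genes; 2 factors and 8.25% of genes at an unadjusted p under 0.05) or between CD4 T and Cd4/Cd8b1-negative cells (0.00847% of genes; 1 factor and 3.41% of genes at an unadjusted p under 0.05). The share of genes called between CD4 T and CD8 T cells was 0.336% with the split at 10 RPKM and 0.0444% without ND1. With marker gates at 50 RPKM in place of clusters, which changed the cells, profiles and genes tested as well, it was 0.701%. Gates at 1 RPKM left CD8 T profiles in ND2 and HFD1 only, and CD4 T profiles in ND3, HFD1 and HFD2 only. No share of genes is given for them.

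**Figure D2:**
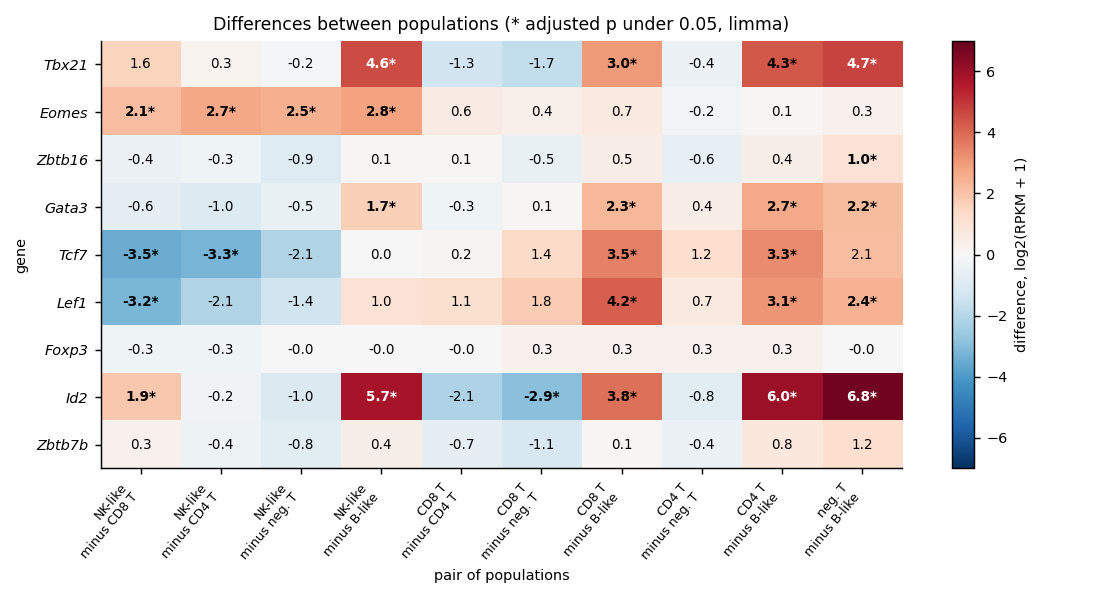
Difference of each factor between each pair of populations: rows are factors, columns are pairs (neg. T stands for Cd4/Cd8b1-negative T), and colour and printed value give the difference in mean log2(RPKM + 1), first minus second. Asterisks mark a Benjamini-Hochberg adjusted p under 0.05 in limma over all genes. Id2 and Tbx21 are raised in all 4 contrasts with B-like cells, and Eomes in the 4 contrasts of NK-like cells.

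**Figure D3:**
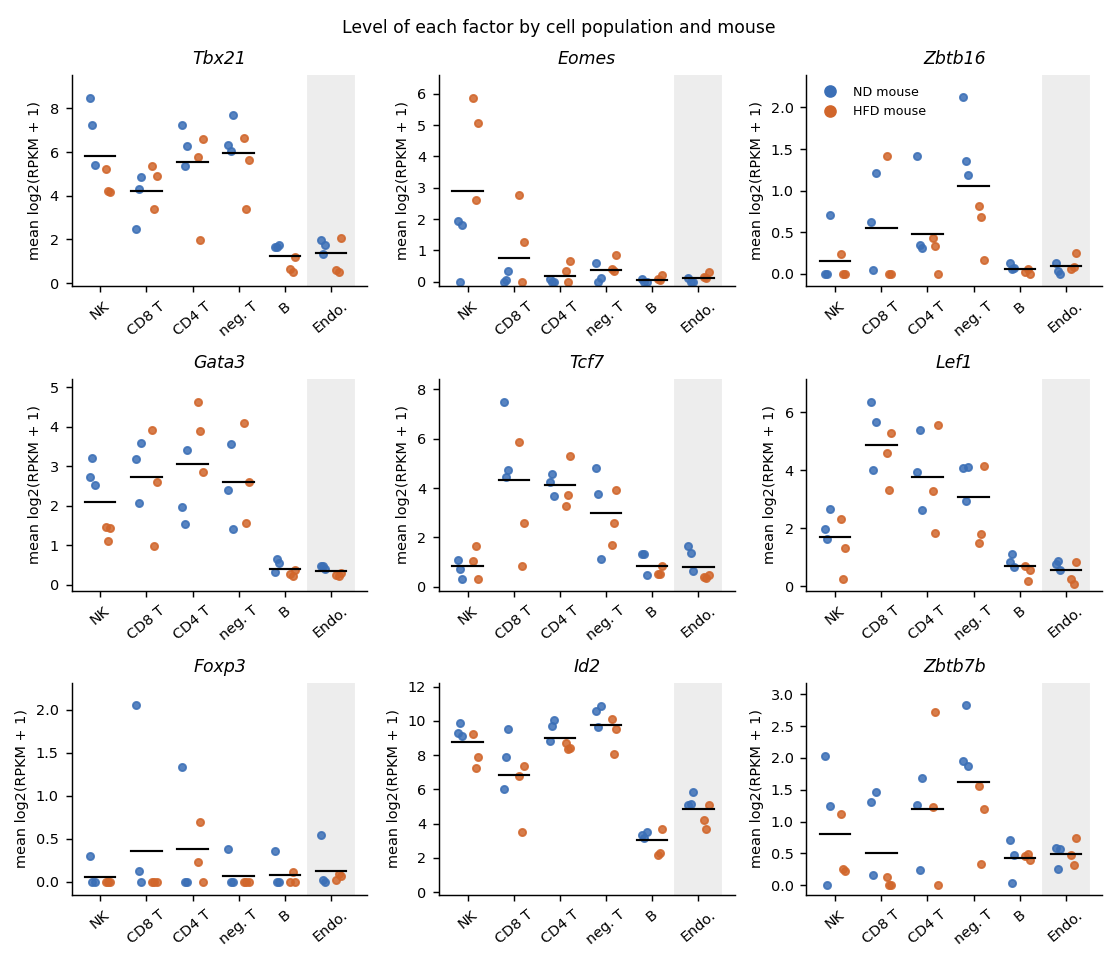
Level of each factor in each mouse: the y axis gives the mean log2(RPKM + 1) over cells, points are mice coloured by diet, horizontal lines are means over 6 mice, and the shaded column holds endothelial cells (Endo.; neg. T stands for Cd4/Cd8b1-negative T). Id2 is high in the 4 NK and T cell populations (means 6.86 to 9.78) and 3.02 in B-like cells, while Eomes is above 1 on average only among NK-like cells (2.88).

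Tbx21 was high in NK cells and in each T cell population and at background in B cells. In NK-like cells its level was 8.49, 7.24, 5.43, 5.21, 4.24 and 4.19 in the 6 mice, a mean of 5.80 ± 1.72 (SD, n = 6). CD4 T cells stood at 7.24, 5.38, 6.27, 5.77, 1.99 and 6.62, a mean of 5.55 ± 1.86. The ranges of these populations overlapped over most of their length, and HFD2 gave the lowest CD4 T value by a wide margin. Cd4/Cd8b1-negative T cells averaged 5.96 ± 1.44 and CD8 T cells 4.22 ± 1.09, with CD8 T cells below Cd4/Cd8b1-negative cells in all 6 mice. That last difference, 1.75 on the log2 scale, did not pass over all genes (limma, Benjamini-Hochberg adjusted p = 0.432).

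Between NK-like and CD4 T cells the Tbx21 difference was 0.25 with a 95% interval of -1.05 to 1.56 (limma adjusted p = 0.927), and 3 of 6 mice were higher in each population. Without HFD2 it was -0.37, and without ND2 it was -0.02. Against B-like cells (1.23 ± 0.56) Tbx21 was higher by 4.58 in NK-like, 2.99 in CD8 T, 4.32 in CD4 T and 4.74 in Cd4/Cd8b1-negative cells. The limma adjusted p-values of these 4 contrasts were 2.59e-05, 0.00401, 5.81e-05 and 1.75e-05. Under marker gates at 1 RPKM the T cell differences were 1.29, 2.22 and 1.89 in turn and none passed (limma adjusted p = 0.308 for the last). The CD8 T and CD4 T values there rest on the few mice named above. Under gates at 50 RPKM the CD8 T difference (2.30, limma adjusted p = 0.195) did not pass. With the clustered populations all 6 mice agreed in direction in each contrast, and the 6 values of one population lay above the 6 of the other, as did 3.34%, 3.19%, 3.87% and 4.0% of all genes in either direction. By single cells, Tbx21 reached 50 RPKM in 58.8% of NK-like (interval 44.2 to 72.4), 38.5% of CD8 T (25.3 to 53), 55.8% of CD4 T (45.7 to 65.5) and 52% of Cd4/Cd8b1-negative cells (42.8 to 61.1). Without HFD2 the shares were 66.7%, 40%, 62.9% and 69.6%, with Cd4/Cd8b1-negative cells then highest. Tbx21 was at 50 RPKM in 0 of 250 B-like cells, which allows a share of up to 1.2%.

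Eomes was the 1 factor called between NK-like cells and each of the other 4 populations, though these calls were lost when clusters were drawn from 10 principal components. Its NK-like level was 1.92, 0.00, 1.80, 5.88, 2.60 and 5.08, a mean of 2.88 ± 2.20. ND2 had no signal in its 7 NK-like cells, and HFD1 and HFD3 were highest. CD8 T cells averaged 0.74 ± 1.11, with HFD1 at 2.77 and HFD3 at 1.26 and the other 4 mice at 0.35 or less. Means in the CD4 T, Cd4/Cd8b1-negative and B-like populations were 0.18, 0.38 and 0.07.

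The NK-like excess of Eomes was 2.14 over CD8 T, 2.70 over CD4 T, 2.50 over Cd4/Cd8b1-negative T and 2.81 over B-like cells, each with an SE of 0.396. The limma adjusted p-values were 0.0026, 0.000232, 0.000914 and 3.52e-05. NK-like cells were higher in 5 of 6 mice in each pair, and ND2 was the exception. Without ND1 the excess over CD8 T cells was 1.94 and no longer passed (limma adjusted p = 0.0609). The exact two-sided sign-flip test over mice gave p = 0.0625 for each of these pairs, where 0.0312 is the smallest p that 6 mice allow. In the pairs with CD4 T, Cd4/Cd8b1-negative T and B-like cells ND2 was at 0 on both sides, so 0.0625 was the smallest p possible there. At 50 RPKM or more, Eomes was in 27.5% of NK-like cells (interval 15.9 to 41.7), 5.77% of CD8 T cells, 3.25% of Cd4/Cd8b1-negative cells, 0% of CD4 T cells (no cell, which allows up to 2.88%) and 0 of 467 endothelial cells (up to 0.642%). When clusters were drawn from 10 principal components the NK-like class grew to 100 cells, of which 77 came from HFD2. The excess was then 0.15 over CD8 T, 1.12 over CD4 T, 0.70 over Cd4/Cd8b1-negative T and 1.28 over B-like cells, and none passed (limma adjusted p of 0.903, 0.18, 0.469 and 0.129). Gates at 50 RPKM also ended the CD8 T call (1.89, limma adjusted p = 0.0822), and averaging RPKM first that against Cd4/Cd8b1-negative T cells (3.21, limma adjusted p = 0.057).

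Taken per cell, the T-box pair divided the 51 NK-like cells. Both factors reached 50 RPKM in 10 cells, Tbx21 alone in 20, Eomes alone in 4 and neither in 17. HFD2 gave 9 of the cells with neither, and without it the counts were 6, 18, 4 and 8. HFD1 gave 3 of the 4 cells with Eomes alone. Of the 14 cells with Eomes, none had Cxcr6, a receptor of liver-resident lymphocytes, at 50 RPKM, whereas 10 of the 37 cells without it did. Tnfsf10, which encodes the death ligand TRAIL, was at that level in 0 of 14 and 7 of 37. These cells came unevenly from the diets, 10 of the 14 with Eomes being from HFD mice. Within ND mice Cxcr6 was in 0 of 4 cells with Eomes and 7 of 22 without, and Tnfsf10 likewise in 0 of 4 and 7 of 22. Within HFD mice Cxcr6 was in 0 of 10 and 3 of 15, and Tnfsf10 in 0 of 10 and 0 of 15. Mouse, diet and Eomes cannot be told apart in counts this small. The integrin genes Itga1 and Itga2 were seldom at that level, in 1 of 14 and 0 of 14 cells with Eomes and in 3 of 37 and 5 of 37 without. Cells of 1 mouse are not replicates, and these counts carry no test.

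**Figure D4:**
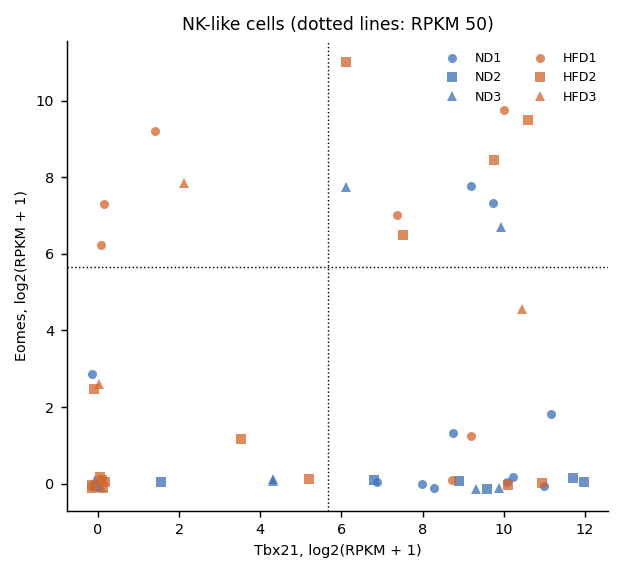
Tbx21 against Eomes in each of the 51 NK-like cells: both axes give log2(RPKM + 1), points are cells coloured by diet with 1 symbol per mouse and a small random shift, and dotted lines mark 50 RPKM. The quadrants hold 10 cells with both factors, 20 with Tbx21 alone, 4 with Eomes alone and 17 with neither, and all 4 cells with Eomes alone are from HFD mice.

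Id2 had the highest level of the 9 factors in each NK and T cell population, and its difference from B cells was the widest of any factor in NK-like, CD4 T and Cd4/Cd8b1-negative T cells. In NK-like cells it was 9.28, 9.89, 9.12, 9.23, 7.22 and 7.87, a mean of 8.77 ± 1.01. B-like cells had 3.35, 3.15, 3.50, 2.14, 2.30 and 3.70, a mean of 3.02 ± 0.65. Each B-like value was below each NK-like value. The excess over B-like cells was 5.74 in NK-like, 3.83 in CD8 T, 5.97 in CD4 T and 6.76 in Cd4/Cd8b1-negative T cells, with limma adjusted p of 4.82e-08, 2.83e-05, 3.02e-08 and 3.56e-09. Under gates at 1 RPKM the last was 2.24 and did not pass (limma adjusted p = 0.157).

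Among T cells Id2 was lowest in the CD8 T population. CD8 T cells had 6.05, 7.90, 9.52, 6.80, 3.51 and 7.36, a mean of 6.86 ± 2.01, and the Cd4/Cd8b1-negative population averaged 9.78 ± 1.0. That difference of 2.93 passed (limma adjusted p = 0.0308), as did the NK-like excess over CD8 T cells of 1.91 (limma adjusted p = 0.0496), although Id2 spread more between mice in CD8 T cells than in any other population and HFD2 was the lowest. CD8 T minus Cd4/Cd8b1-negative was -2.43 without ND1, -3.13 without ND2, -3.23 without ND3 and -2.94 without HFD1, and none of these passed. The NK-like excess was lost without ND1 (1.51), ND2 (1.82), HFD1 (1.86) or HFD2 (1.54), and under 6 other settings, with 0.60 when RPKM was averaged first and 0.93 with 10 principal components the lowest. Averaging RPKM first also gave -1.31 for CD8 T minus Cd4/Cd8b1-negative (limma adjusted p = 0.305), and a pseudocount of 0.1 gave -3.20 (limma adjusted p = 0.0586). CD4 T cells were above CD8 T cells in all 6 mice by 2.14, which did not pass over all genes (limma adjusted p = 0.115). Marker gates at 1 RPKM left 13 CD8 T cells, with CD8 T profiles in ND2 and HFD1 only. Under these gates CD8 T cells were instead above Cd4/Cd8b1-negative cells by 1.95, over fewer mice than in the main fit. Share of cells at 50 RPKM was 84.3% in NK-like, 59.6% in CD8 T, 81.7% in CD4 T and 85.4% in Cd4/Cd8b1-negative cells. It was 5.6% in B-like cells (14 of 250). Endothelial cells had Id2 at that level in 38.8%, so Id2 did not mark lymphocytes among liver cells.

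Tcf7 and Lef1 had higher means in each T cell population than in NK or B cells, although not every such contrast passed. Tcf7 in NK-like cells was 1.09, 0.74, 0.30, 1.03, 1.64 and 0.32, a mean of 0.85 ± 0.51, close to the endothelial mean of 0.82. In CD4 T cells it was 4.26, 4.59, 3.67, 3.27, 3.71 and 5.29, a mean of 4.13 ± 0.73. All 6 CD4 T values lay above all 6 NK-like values, a separation seen for 1.02% of all genes. The difference was 3.28 ± 0.66 (SE; limma adjusted p = 0.00736; exact sign-flip p = 0.0312), and CD8 T cells exceeded NK-like cells by 3.48 (limma adjusted p = 0.00331). NK-like minus CD4 T was -3.18 without ND2 and -2.81 without HFD3, neither of which passed (limma adjusted p of 0.0776 and 0.0907).

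CD8 T cells showed the widest spread of Tcf7. Values were 7.49, 4.46, 4.75, 5.89, 0.84 and 2.60, with HFD2 and HFD3 lowest, and 5 of 6 mice were above their NK-like value. Cd4/Cd8b1-negative cells averaged 2.97 ± 1.42, above NK-like cells in all 6 mice by 2.12 (limma adjusted p = 0.164). The CD8 T minus CD4 T difference was 0.21 with an interval of -1.16 to 1.58.

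Lef1 followed the same order. Means were 1.69 ± 0.85 in NK-like, 4.87 ± 1.11 in CD8 T, 3.78 ± 1.50 in CD4 T, 3.09 ± 1.21 in Cd4/Cd8b1-negative and 0.68 ± 0.31 in B-like cells. NK-like cells were below CD8 T cells by 3.18 (limma adjusted p = 0.00111). Against CD4 T cells they were lower by 2.09, with an interval of 0.95 to 3.22, a difference just outside the threshold (limma adjusted p = 0.0559). Without ND3 the difference, NK-like minus CD4 T, was -2.57 and passed (limma adjusted p = 0.0498). NK-like minus Cd4/Cd8b1-negative T was -1.40 and did not pass (limma adjusted p = 0.306). Against B-like cells Lef1 was higher by 4.19 in CD8 T, 3.09 in CD4 T and 2.41 in Cd4/Cd8b1-negative T cells (limma adjusted p of 1.4e-05, 0.000614 and 0.00768). The last of these did not pass without ND1 (2.30) or ND3 (2.25). Under gates at 1 RPKM these Lef1 differences were 1.74, 1.17 and 0.52, and none passed (limma adjusted p = 0.888 for the last). The CD8 T and CD4 T values under these gates rest on the few mice named above. Tcf7 passed against B-like cells in CD8 T (3.50, limma adjusted p = 0.00134) and CD4 T cells (3.29, limma adjusted p = 0.00242) but not in Cd4/Cd8b1-negative T cells (2.13, limma adjusted p = 0.0719). Under gates at 1 RPKM the CD4 T difference, from the same few mice, was 2.30 and did not pass.

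Tcf7 and Lef1 were often found in the same T cells. Of all T-cell-like cells, 57 had both at 50 RPKM, 51 Tcf7 alone, 49 Lef1 alone and 150 neither, so Lef1 was present in 52.8% of cells with Tcf7 and 24.6% of cells without. In CD8 T cells the shares were 66.7% and 35.5%, in CD4 T cells 57.5% and 20.3%, and in Cd4/Cd8b1-negative cells 35.5% and 22.8%. Without HFD2 the last pair was 40% and 30.6%. Cells differ in depth, and these shares are a description without a test.

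**Figure D5:**
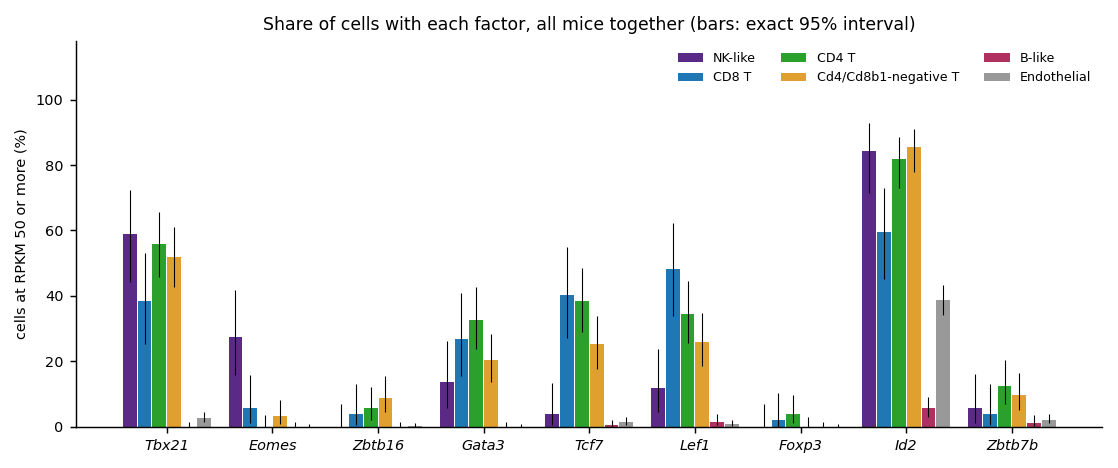
Percent of cells with each factor at 50 RPKM or more, all 6 mice together: bars are populations and lines are exact binomial 95% intervals over cells. Id2 is in the largest share of each NK and T cell population, Tbx21 is next except in CD8 T cells, where Lef1 and Tcf7 lie above it, Tcf7 and Lef1 are in 25.2% to 48.1% of the T cell populations and at most 11.8% of NK-like cells, and B-like cells are at 5.6% or less for every factor.

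Gata3 had mean levels of 2.60 to 3.05 in the 3 T cell populations, and none of its contrasts between NK-like and T cells passed (limma adjusted p of 0.379 to 0.76, NK-like higher in 2 of 6 mice in each). Its level was 2.08 ± 0.85 in NK-like, 2.72 ± 1.08 in CD8 T, 3.05 ± 1.17 in CD4 T and 2.60 ± 1.06 in Cd4/Cd8b1-negative cells, and 0.39 ± 0.17 in B-like cells. CD4 and CD8 T cells differed by 0.33 with an interval of -0.60 to 1.25 (limma adjusted p = 0.883), 3 mice being higher in each. Without HFD2, where CD8 T cells were at 0.99 and CD4 T cells at 3.89, the difference was -0.08. Each of the 4 NK and T cell populations was above B-like cells, by 1.69 in NK-like, 2.33 in CD8 T, 2.66 in CD4 T and 2.21 in Cd4/Cd8b1-negative cells (limma adjusted p of 0.0263, 0.00157, 0.000345 and 0.00259). The NK-like call was lost without ND1 (1.67), ND2 (1.63), HFD1 (1.66) or HFD3 (1.68). Gates at 50 RPKM ended the NK-like (1.55) and CD8 T calls (1.54), and gates at 1 RPKM the Cd4/Cd8b1-negative call (1.08), with limma adjusted p of 0.0577, 0.0824 and 0.288. Gata3 at 50 RPKM was in 32.7% of CD4 T, 26.9% of CD8 T, 20.3% of Cd4/Cd8b1-negative and 13.7% of NK-like cells, and in 0 of 250 B-like cells (up to 1.2%).

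Zbtb7b, the factor of the CD4 lineage, was low and variable. CD4 T cells stood at 1.26, 0.24, 1.69, 1.23, 2.73 and 0.00, a mean of 1.19 ± 0.99, and CD8 T cells averaged 0.51 ± 0.68. The difference of 0.68 had an interval of -0.09 to 1.45 and did not pass (limma adjusted p = 0.639). Cd4/Cd8b1-negative cells had the highest mean, 1.63 ± 0.83. At 50 RPKM it was in 12.5% of CD4 T, 9.76% of Cd4/Cd8b1-negative, 3.85% of CD8 T and 5.88% of NK-like cells, with intervals that overlapped. HFD2 held 1 of the positive cells among its 54 Cd4/Cd8b1-negative cells and 4 among its 15 CD4 T cells, and without HFD2 the shares were 15.9% of Cd4/Cd8b1-negative and 10.1% of CD4 T cells, in the opposite order. Of the 13 CD4 T cells with Zbtb7b, 4 also had Gata3, against 30 of the 91 without.

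Foxp3 was a matter of 5 cells. It reached 50 RPKM in 4 CD4 T cells, 3 from ND1 at 1724, 795.3 and 539.8 RPKM and 1 from HFD2 at 1321 RPKM, and in 1 CD8 T cell from ND1 at 1099 RPKM. The next highest T cell had 5.302 RPKM, so no cell fell between. Ctla4, an inhibitory receptor of regulatory T cells, was at 50 RPKM in 3 of the 4 CD4 T cells with Foxp3, all 3 from ND1, and in 2 of the 100 without. Il2ra and Ikzf2, other genes of regulatory T cells, were each at that level in 1 of the 4. Foxp3 was in 0 of 123 Cd4/Cd8b1-negative cells, which allows up to 2.44%. CD4 T minus CD8 T was 0.01 on the log2 scale with an interval of -0.46 to 0.48 (limma adjusted p = 0.996), and leaving out ND2, ND3 or any HFD mouse gave -0.08 to 0.09. Without ND1, Foxp3 was at 1 RPKM or more in 7 lymphocytes, below the filter on low values, so limma gave no value, and the paired difference over the remaining 5 mice was 0.16 ± 0.32 (SD) with no test.

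Innate-like T cells without either coreceptor would fall in the Cd4/Cd8b1-negative population, as would T cells whose Cd4 or Cd8b1 was not read. Zbtb16 had its highest mean in this population. Its level there was 2.13, 1.36, 1.19, 0.82, 0.69 and 0.17, a mean of 1.06 ± 0.67. CD4 T cells had 1.41, 0.35, 0.31, 0.43, 0.34 and 0.00. Each mouse was higher in Cd4/Cd8b1-negative cells, by 0.58 on average with an interval of 0.10 to 1.07 and an exact sign-flip p of 0.0312. Over all genes the difference did not pass (limma adjusted p = 1.0). CD8 T cells were higher than Cd4/Cd8b1-negative cells in 2 of 6 mice, and that difference (0.51, limma adjusted p = 0.603, exact sign-flip p = 0.188) did not pass either. Against B-like cells (0.06 ± 0.04) Cd4/Cd8b1-negative cells were higher by 1.0 (limma adjusted p = 0.0103), with every value above every B-like value. Without ND1 (0.87) or HFD2 (0.98), or under gates at 50 RPKM (0.73), it did not pass.

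Zbtb16 reached 50 RPKM in 11 of 123 Cd4/Cd8b1-negative cells (8.94%, interval 4.55 to 15.4), 6 CD4 T cells and 2 of 52 CD8 T cells. No NK-like cell did (0 of 51, up to 5.88%). Among the 11 cells, 7 had Tbx21, 2 had Gata3, 9 had Cxcr6 and 7 had Klrb1c, the NK1.1 gene, at that level. Among the other cells of the population, those without Zbtb16, the shares were 50.9% for Tbx21, 20.5% for Gata3, 64.3% for Cxcr6 and 47.3% for Klrb1c. Without HFD2, 7 cells with Zbtb16 remained, of which 4 had Klrb1c (57.1%), against 58.1% of those without.

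Genes whose level tracked each factor over the 30 population by mouse profiles are given as a description, since the profiles share mice and depth. The other factors are left out of these rankings. Tbx21 ran closest to Itgb2 (Pearson r = 0.894), S100a6 (0.852) and Il2rb (0.843), Eomes to Klra3 (0.86), Zeb2 (0.851) and Adamts14 (0.85), and Id2 to H2-K1 (0.929), Itgb2 (0.913) and Itgal (0.9). Tcf7 ran closest to Folr4 (0.836), Cd5 (0.803) and Lat (0.802) and Lef1 to Cd5 (0.882), Lat (0.829) and Cd3g (0.824). Gata3 followed Lat (0.761), H2-K1 (0.752) and Fyb (0.749). Zbtb16 ran closest to Tmco1 (0.75), Ppfia1 (0.734) and Tshz1 (0.722), and Prdx3 (0.698) and Usp47 (0.64) were among the nearest to Zbtb7b. For Foxp3 they were Slc16a13 (0.847), Grb7 (0.847) and Fastkd5 (0.845), which rest on few cells. Between factors the closest pairs were Tbx21 with Id2 (0.866) and Tcf7 with Lef1 (0.788).

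Genes that act with these factors were taken as lists, each read in 1 contrast by limma. Of 14 NK and cytotoxic effector genes, 7 were higher in NK-like than in CD4 T cells and 1 was lower, where 1.57% of all genes were called in either direction, with a median difference of 1.88 against -0.066 over all genes. Prf1 (perforin, 6.06, adjusted p = 2.52e-06), S1pr5 (an egress receptor, 4.11, adjusted p = 9.35e-06), Gzmb (granzyme B, 4.86, adjusted p = 1.11e-05) and Cd244 (3.15, adjusted p = 2.16e-05) led. Cxcr3, a chemokine receptor of effector T cells, was the 1 that was lower (-4.32, adjusted p = 0.000406).

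Of 12 naive and recirculating T cell genes, 1 was higher in CD4 T than in NK-like cells, Il7r, the interleukin-7 receptor, by 2.11 (limma adjusted p = 0.0274; 1.57% of all genes in this contrast), and the list's median was 0.59 against 0.066. Without ND1, ND3, HFD1 or HFD3, 0 of the list passed. Of 23 other lymphocyte transcription factors tested, Nfil3, a factor of NK cell development, was higher in NK-like cells by 1.02 (limma adjusted p = 0.0433). Bcl11b, a T lineage commitment factor, was higher in CD4 T cells (-3.15 as NK-like minus CD4 T, limma adjusted p = 0.00323). Zeb2 (1.13, adjusted p = 0.0512) and Rora (-1.90, adjusted p = 0.0575) in that contrast did not pass. Their median was 0.03 against -0.066, and without ND1 0 passed.

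Of 13 B cell fate factors and E proteins, 7 were lower in NK-like than in B-like cells and none was higher, where 4.41% of all genes were called, with a median of -1.32 against -0.004. The differences were -4.42 for the adaptor Pou2af1, -4.11 for Spib, -3.81 for Pax5, which holds B cell identity, and -2.98 for Bcl11a (limma adjusted p of 3.27e-09, 1.74e-09, 3.44e-06 and 3.03e-09). Of 12 regulatory T cell genes tested, Tnfrsf4 (OX40) was higher in CD4 than in CD8 T cells by 0.80 (limma adjusted p = 0.0201; 0.135% of all genes), at a list median of 0.29 against -0.021. None passed without ND1, ND2 or ND3, and 2 passed without HFD1. Of 12 innate-like T cell genes, limma called 0 between Cd4/Cd8b1-negative and CD4 T cells (0.00847% of all genes; 1 of the list and 3.41% of all genes at an unadjusted p under 0.05), and the median was -0.13 against -0.006.

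The diet comparison asked whether 9 weeks of high-fat feeding moved the factors within a population. Of 45 factor and population pairs, 1 passed, Eomes in NK-like cells, where 0.0677% of all genes were called. The level was 1.92, 0.00 and 1.80 in ND mice and 5.88, 2.60 and 5.08 in HFD mice, so every HFD value was above every ND value. The difference was 3.28 with an SE of 0.608 and an interval of 2.02 to 4.54 (limma, Benjamini-Hochberg adjusted p = 0.0403). An exact permutation test of 3 against 3 mice gave p = 0.1, the smallest it allows.

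Several facts stand beside this result. The NK-like class held 11, 7 and 8 cells in the ND mice and 7, 15 and 3 in the HFD mice, and the share of them at 50 RPKM of Eomes was 18.2%, 0% and 25% in ND mice against 71.4%, 26.7% and 33.3% in HFD mice. The summed level of 8 T cell markers in NK-like cells was 21.29 to 26.02 in ND mice and 6.543 to 18.92 in HFD mice, without overlap, and 5 of the 8 had a mean above 1. NK-like cells with Cd3e at 50 RPKM numbered 2, 2 and 1 in ND mice and 2, 0 and 0 in HFD mice. Without those 7 cells the Eomes difference was 2.98 (limma adjusted p = 0.049). Without HFD2 it was 4.24 (limma adjusted p = 0.000793). Without ND1 (3.62), ND2 (2.66), ND3 (3.56), HFD1 (2.60) or HFD3 (3.0) it no longer passed. Of 18 alternative settings, 11 ended the call, and over all 18 the difference ranged from 1.76 to 4.95, higher in HFD mice in each.

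The Eomes difference was not shown to be particular to NK-like cells. None of the 90 differences of diet effects between populations passed for the factors (limma, smallest adjusted p = 0.392). At an unadjusted p under 0.05 there were 8 (8.89%), against 4.97% of these differences over all genes. Without HFD2, 1 passed, Eomes in NK-like against B-like cells (limma adjusted p = 0.0338). In CD8 T cells Eomes was 0.00, 0.06 and 0.35 in ND mice and 2.77, 0.00 and 1.26 in HFD mice, which overlapped.

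Tbx21 and Gata3 in NK-like cells also had diets that did not overlap, as did 7.64% of all genes in that population. Tbx21 was 8.49, 7.24 and 5.43 in ND and 5.21, 4.24 and 4.19 in HFD mice, lower by 2.51 in HFD with an interval of 0.50 to 4.51 (limma adjusted p = 0.476). When the 7 NK-like cells with Cd3e were left out, Tbx21 in HFD1 was 7.30, above the 6.21 of ND3, and the diets overlapped. Gata3 was 2.73, 3.21 and 2.54 in ND and 1.46, 1.11 and 1.44 in HFD mice, a difference of -1.49 (limma adjusted p = 0.611). Neither passed. Tnfsf10, the TRAIL gene, was 2.42, 3.27 and 2.25 in ND and 1.14, 0.13 and 0.17 in HFD mice, also short of the threshold (limma adjusted p = 0.144). Cxcr6 differed by -2.16 (limma adjusted p = 0.611), while Itga1 (-0.12) and Itga2 (0.30) were near 0.

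In the other populations limma called no factor by diet, where 0.0508% of all genes were called in CD8 T cells and 0.0% in each of the other 3, and 5 factor and population pairs did not overlap, at a background of 6.52% of all genes in CD8 T, 10.6% in CD4 T, 7.67% in Cd4/Cd8b1-negative T and 9.96% in B-like cells. These were Zbtb7b in CD8 T cells (-0.93), Id2 in CD4 T cells (-1.02), Zbtb16 (-1.0) and Zbtb7b (-1.18) in Cd4/Cd8b1-negative cells and Tbx21 in B-like cells (-0.92), all lower in HFD mice. The summed level of the 8 T cell markers was also lower in HFD mice without overlap in the Cd4/Cd8b1-negative (50.61 to 55.33 in ND, 38.9 to 50.59 in HFD) and B-like populations (12.46 to 13.57 in ND, 6.043 to 11.62 in HFD), and its part in these differences was not tested. At an unadjusted p under 0.05 there were 3 factors in CD8 T, 1 in CD4 T, 2 in Cd4/Cd8b1-negative T and 0 in B-like cells, and 10.2%, 4.85%, 2.95% and 0.694% of all genes in turn. In endothelial cells the median positive cell had 0.987 reads of Gata3 and 1.09 of Tcf7. Both also had lower HFD values without overlap (-0.19 and -0.80), as did Id2 (-1.03). The share of all genes without overlap was not computed for endothelial cells, so these have no background beside them. On simulated data with these profiles, a diet difference of 2 on the log2 scale in CD4 T cells was recovered for 32% of genes. One of 4 was recovered for 80%, so diet differences below that size could be missed. Genes with low means were not changed there, and many genes were changed at once, so recovery of low factors may be poorer.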

How the data were processed

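Liver non-parenchymal cells of 3 ND and 3 HFD mice were sorted into plates and sequenced by Smart-seq2. The authors mapped the reads with STAR (build mm10), used those with a single location, computed RPKM with rpkmforgenes, filtered cells and removed doublets with Scrublet, and deposited the RPKM of 1470 cells. No counts were used. Reads per cell were estimated from the steps between low RPKM values of 10722 genes with a single transcript length, and medians in lymphocytes ran from 75991 to 196649 per mouse. The estimate was checked on simulated data (85.0% of 40 cells within 2%). In the real cells a median of 60.65% to 63.06% of low values per mouse lay within 0.05 of a whole read, so read numbers are approximate.

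Cells were clustered on 20 principal components of variable genes (scikit-learn 1.9.0), leaving out 94 list genes and factors, and classes were named from fixed markers. The mean log2(RPKM + 1) over at least 3 cells of a population in a mouse gave 30 profiles. These were fitted in limma 3.58.1 with population by diet means and mouse as a correlated block, over 11813 genes at 1 RPKM or more in at least 10 lymphocytes. A fold change on the log2(RPKM + 1) scale understates the change of low genes. Exact sign-flip tests over 6 mice and exact permutation tests of 3 against 3 mice were two-sided. The limma step was tested on simulated data, where 68% of NK-like against CD8 T differences of 2 on the log2 scale were recovered. Genes with low means were not changed in it. Alternatives changed the pseudocount, averaging, filter, variance trend, weights, minimum cells, clustering, gates, scaling and mice. Gates at 50 RPKM, the removal of NK-like cells with Cd3e, shares without HFD2 and the Foxp3 difference without ND1 were added after seeing the data. The named genes were the 9 factors, the 3 genes nearest to each, up to 4 genes of each list by adjusted p, and the genes set beside a factor in single cells. Other genes named were chosen after their values were seen. Some genes that this rule names are not reported here. The factors and lists were chosen with earlier results of these data known. Promoter sequence was taken from RefSeq on GRCm38.p6, the assembly of mm10.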

Additional observations from a re-analysis of the deposited data

Results flagged for a closer look

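In 7 of 45 groups of 6 mice, 1 mouse lay far from the other 5. Chance alone sets apart a mouse in about 1 in 20 such groups of normally distributed values, but many levels here are near 0. Over all genes tested 17.9% of groups had such a mouse, against 15.6% for the factors. Foxp3 in ND1 accounts for 4 of the 7, with the highest level in NK-like (0.31, the other 5 mice at 0), CD8 T (2.06, next 0.12), Cd4/Cd8b1-negative T (0.38, the others at 0) and B-like cells (0.35, next 0.11). ND1 also held 4 of the 5 T cells with Foxp3 at 50 RPKM or more. Zbtb16 was highest in ND3 among NK-like cells (0.71, next 0.24) and in ND1 among CD4 T cells (1.41, next 0.43). Tbx21 in CD4 T cells was lowest in HFD2 at 1.99, where the next mouse was at 5.38 and where the median number of detected genes was also lowest. The part of depth or of single cells in these values was not tested.

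Outside lymphocytes, the 95% intervals of 2 factors lay above the endothelial interval. Zbtb7b reached 50 RPKM in 8.4% of Kupffer cells and 22.7% of the 66 cells of a class that met no marker rule, against 2.14% of endothelial cells. Zbtb16 was at that level in 6.06% of those 66 cells against 0.214% of endothelial cells. The leading genes of the 66 cells included Alox5ap, Tyrobp, Lst1, Spi1, Fcer1g and Lyz2.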

How the results depend on the processing

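Over 34 results on the factors and 595 refits, 525 kept direction and side of the threshold, 58 lost a call, 2 gained one and 10 changed sign. Except where stated the cause was not tested. Marker gates at 1 RPKM left 6 NK-like cells, so no NK-like contrast could be fitted there. They left CD8 T profiles in ND2 and HFD1 only, and CD4 T profiles in ND3, HFD1 and HFD2 only. Results of those gates on CD4 T and CD8 T cells therefore rest on fewer mice. Gates at 50 RPKM left 36 NK-like cells, and 10 principal components gave 100.

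With 10 principal components Tbx21, NK-like minus CD4 T, was -1.46, Eomes in that contrast 1.12 and Foxp3, CD4 T minus CD8 T, -0.05. A pseudocount of 0.1 gave -0.08 for that Foxp3 difference. Tcf7, NK-like minus CD4 T, was -2.81 with at least 5 cells per profile, and Lef1 in that contrast -3.42 with RPKM averaged first. Id2, CD8 T minus Cd4/Cd8b1-negative T, was 1.95 under gates at 1 RPKM, with CD8 T profiles in ND2 and HFD1 only. Leaving out each mouse in turn gave -0.37 to 0.80 for Tbx21, -3.53 to -2.81 for Tcf7 and -2.57 to -1.59 for Lef1 between NK-like and CD4 T cells, and -0.08 to 0.59 for Gata3 between CD4 T and CD8 T cells. For Foxp3 in that pair it gave -0.08 to 0.09 over 5 of the 6 mice, since without ND1 Foxp3 did not pass the filter on low values.

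Eomes by diet in NK-like cells was 4.95 with a pseudocount of 0.1, 3.97 with RPKM averaged first, 2.47 with weights, 3.02 with at least 5 cells, 1.76 under gates at 50 RPKM, 2.09 with 10 principal components and 2.60 to 4.24 without each mouse.

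Genes called are given as a percent of the genes tested in each setting, with the reported value in parentheses at first use. RPKM averaged first: NK-like against B-like 8.86 (4.41), Cd4/Cd8b1-negative against CD4 T 0.0339 (0.00847), and by diet NK-like 0.0 (0.0677), CD8 T 0.119 (0.0508), CD4 T 0.0339 (0.0) and B-like 0.0508 (0.0). Weights by cell number: Cd4/Cd8b1-negative against CD4 T 0.0423, CD4 T against CD8 T 0.0677 (0.135), and by diet NK-like 0.00847, CD8 T 0.00847, Cd4/Cd8b1-negative 0.00847 (0.0) and B-like 0.102. At least 5 cells: 0.0169 and 0.0677 for these T cell pairs in turn, and by diet NK-like 0.0423 and CD8 T 0.102. A variance trend: 0.0169 and 0.0847, and by diet NK-like 0.0339. Gates at 1 RPKM: 0.294 and 3.52, and by diet CD8 T 1.73 and CD4 T 1.31. Gates at 50 RPKM: NK-like against CD4 T 3.19 (1.57), then 0.0169 and 0.701, and by diet CD8 T 0.253 and CD4 T 0.0169. With 10 components: 2.96, 0.0254 and 0.416, and by diet NK-like 0.017, CD8 T 0.543 and CD4 T 0.00848. T cells split at 10 RPKM: CD4 T against CD8 T 0.336, and by diet CD8 T 0.0841 and CD4 T 0.00841. No filter: by diet NK-like 0.0885, CD4 T 0.0136 and Cd4/Cd8b1-negative 0.0068. A pseudocount of 0.1: by diet NK-like 0.0169. Without NK-like cells with Cd3e: by diet NK-like 0.127 and CD8 T 0.0255. Without each mouse in turn: NK-like against CD4 T 0.729 to 2.08, Cd4/Cd8b1-negative against CD4 T 0.0086 to 0.0174, CD4 T against CD8 T 0.0444 to 0.251, by diet NK-like 0.0 to 0.364, CD8 T 0.0 to 0.884 and B-like 0.0 to 0.00874, and differences of diet effects for factors 0 to 1 in number.

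Of the lists, naive T cell genes had 3 called with RPKM averaged first and 0 with weights, at least 5 cells or the split at 10 RPKM. NK and cytotoxic genes had 5 with 10 components. Regulatory T cell genes had 0 with a pseudocount of 0.1, weights or either gate and 2 with a variance trend or 10 components. Other lymphocyte factors had 1 with a pseudocount of 0.1 or no filter and 4 with RPKM averaged first. Leaving out each mouse gave 0 to 1, 6 to 8, 0 to 2 and 0 to 3 for these lists in turn.

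The replicate numbers of the labels were not taken to pair the mice, and the labels do not say whether they do. Same-numbered mice had mean correlations of deviations of 0.103, 0.096 and 0.027, so not every pair was over 0.1. ND1 and ND2 each correlated best with the HFD mouse of the same number, whereas ND3 correlated best with HFD2 (0.044), and the other pairs of unlike number ran from -0.139 to 0.039. With the replicate number as a block, 0.0847% of genes were called by diet in NK-like cells and 0.0593% in CD8 T cells, 0.0% in the other populations and 0 differences of diet effects for factors, and Eomes differed by 3.28 (limma adjusted p = 0.0161).

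Depth limits low factors. One read of Tbx21 was worth about 3.6 RPKM in the median NK-like cell, HFD3 had 3 NK-like and 3 CD4 T cells, and mice of 1 diet number 3, so p-values rest on the spread between few animals. Each mouse also had deposited cell names of its own form, and only those of HFD2 lacked a leading number. What this form stands for is not stated in the labels. Depth, diet, mouse and form of name cannot be told apart for HFD2.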

Other observations

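Signal of Foxp3 at low level was highest in ND1 in some classes that should lack it, but not in all. In endothelial cells it was 0.55 in ND1 and 0.09 or less in the other 5 mice, and in Kupffer cells 0.33 in ND1. Erythrocytes had 1.429 in ND1. Plasmacytoid dendritic cells were instead highest in HFD3 (0.522, ND1 0.108). The class that met no marker rule had 0.0 in ND1 and 0.288 in HFD1, and hepatocytes were at 0.0 in ND1 as elsewhere. Tcf7 in endothelial cells was 1.64 in ND1 and 1.37 in ND2, and 0.63 or less in the other 4 mice. These values are given without an explanation.

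Apart from Eomes, 7 genes were called by diet in NK-like cells with limma. Nif3l1 (2.33) and Cma1 (3.46) were higher in HFD mice, and Pdgfb (-1.74), Hectd3 (-2.61), Cenpj (-1.14), Smu1 (-3.05) and Egln1 (-1.56) were lower. They were chosen after their values were seen and rest on 3 to 15 cells per mouse.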
